A study of Mus musculus with 8 samples.

Results

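The transcription factor NRF2 (gene Nfe2l2) and 31 genes for its regulators, glutathione synthesis and antioxidant enzymes were followed in mouse alveolar macrophages (AM), the macrophages that live on the inner surface of the lung's air sacs. The 32 genes were a given list and were taken as the rows of the deposited count table whose symbol equals a listed name. All 32 of them were found among the table's 37310 rows, none had 0 counts in any library, and all 32 passed the filter on low counts. RNA of bulk AM was sequenced in 8 libraries, 2 for each of 4 groups, and each library was a pool of 3 mice or cultures. The texAM were AM of C57BL/6 mice that had been expanded in culture and given through the trachea to C57Bl/6-Ly5.1 mice, whose own leukocytes carry the CD45.1 allele, and were sorted as CD45.2+ SiglecF+ CD11c+ cells from whole lung 4 months later. The exAM were C57BL/6 AM expanded in culture for 2 months and not sorted. The tAM were C57BL/6 (CD45.2+) AM sorted from recipient lungs 4 months after transplantation, with no culture step named. The HostAM were CD45.1+ AM sorted from C57Bl/6-Ly5.1 mice, and the labels do not say whether those mice had received cells. The mice were 8 weeks old when used, per the labels' protocols. The labels name no other allele and no drug in any group. HostAM differed from tAM and texAM in strain as well as in transfer. The exAM differed from all other groups in the lack of a sort. They also differed from tAM in culture and transfer, and from HostAM in culture and strain. From texAM, which had been cultured too, they differed in transfer and the 4 months in the lung. Within each comparison these cannot be told apart.

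NRF2 is held in the cytoplasm by KEAP1, which hands it to a ubiquitin ligase for destruction. Electrophiles and oxidants modify KEAP1, NRF2 then accumulates, pairs with a small MAF protein such as MAFG and binds antioxidant response elements near genes for glutathione synthesis, thioredoxin recycling, NADPH supply and haem breakdown. NRF2 activity is therefore set mainly at the protein, which these data do not measure, and its target transcripts are the usual readout. AM meet inhaled oxidants and depend on imported cystine and on glutathione for protection.

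The start regions of 4 genes called in at least 1 comparison are shown first, for the letters they hold, chosen after their values were seen among the genes with a RefSeq window. Each is 300 bases, 250 before and 50 after the annotated start, 5′ to 3′ on the gene's strand, from RefSeq on GRCm38.p6. They are Slc7a11 (chr3:50443564-50443863, minus strand), Gclm (chr3:122245307-122245606, plus strand), Srxn1 (chr2:152105274-152105573, plus strand) and Prdx1 (chr4:116685349-116685648, plus strand). Capitals mark, on either strand, the antioxidant response element core TGACNNNGC, the AP-1 motif TGANTCA, or TGATGCAA, the core of the amino acid response element bound by ATF4.
Slc7a11: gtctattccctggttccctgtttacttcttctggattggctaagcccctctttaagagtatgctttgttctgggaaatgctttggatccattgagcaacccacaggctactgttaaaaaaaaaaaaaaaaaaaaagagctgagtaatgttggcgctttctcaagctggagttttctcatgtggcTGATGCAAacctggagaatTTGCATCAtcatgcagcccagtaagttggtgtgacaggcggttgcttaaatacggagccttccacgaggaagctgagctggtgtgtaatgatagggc
Gclm: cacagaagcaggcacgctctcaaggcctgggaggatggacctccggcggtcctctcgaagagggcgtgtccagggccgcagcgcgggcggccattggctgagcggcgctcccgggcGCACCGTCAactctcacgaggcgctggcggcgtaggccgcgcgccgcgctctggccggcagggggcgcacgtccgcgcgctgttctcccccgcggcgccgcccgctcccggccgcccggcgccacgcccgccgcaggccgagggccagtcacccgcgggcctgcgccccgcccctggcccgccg
Srxn1: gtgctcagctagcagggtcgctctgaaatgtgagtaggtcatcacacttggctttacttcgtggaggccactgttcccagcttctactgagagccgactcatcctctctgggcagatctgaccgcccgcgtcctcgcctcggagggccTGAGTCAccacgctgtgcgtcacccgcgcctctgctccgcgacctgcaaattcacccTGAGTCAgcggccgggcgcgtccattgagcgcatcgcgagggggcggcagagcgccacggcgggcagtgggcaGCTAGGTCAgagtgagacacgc
Prdx1: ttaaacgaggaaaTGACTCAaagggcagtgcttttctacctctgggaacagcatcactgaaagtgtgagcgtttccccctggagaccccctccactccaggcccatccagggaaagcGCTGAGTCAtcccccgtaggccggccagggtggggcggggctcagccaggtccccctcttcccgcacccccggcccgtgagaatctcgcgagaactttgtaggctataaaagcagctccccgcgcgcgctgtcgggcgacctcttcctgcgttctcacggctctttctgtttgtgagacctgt
The Gclm window holds 1 antioxidant response element core, GCACCGTCA on the strand shown, which begins 134 bases before the start. The Srxn1 window holds 1 such core, GCTAGGTCA, beginning at base 29 after the start, and 2 AP-1 motifs. In Prdx1 the core GCTGAGTCA, 133 bases before the start, overlaps an AP-1 motif, and a further AP-1 motif lies upstream. The Slc7a11 window holds no match to the first 2 motifs and 2 copies of TGATGCAA, on opposite strands. RefSeq windows were at hand for 27 of the 32 genes, in 37 windows, and the core TGACNNNGC was in 11 of these windows (29.7%), against 4063 of 32817 windows of all genes (12.4%). The 11 genes are G6pdx, Gclm, Mafg, Me1, Mgst1, Nfe2l2, Pgd, Prdx1, Sod1, Srxn1 and Txnrd1. The AP-1 motif was in 7.81% of all windows and TGATGCAA in 0.896%, among the 37 windows in that of Slc7a11 alone. A match is a description of letters and not a bound site, and elements farther from the start are not in these windows. Windows for Gsr, Abcc1, Hmox1, Prdx6 and Gclc were not used here.

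CPM below are counts scaled to the library size after TMM, a scaling that assumes most genes do not differ. Total counts ran between 6546272 (exAM replicate 1) and 9154128 (texAM replicate 1), a ratio of 1.398. Counts of many abundant genes followed these totals weakly. Over the 226 tested genes at more than 1 count per base, the median ratio of replicate 1 to replicate 2 was 1.02 in texAM, where the totals had a ratio of 1.09, and 1.00 in exAM, where the totals had a ratio of 0.921. Single genes differed in this. Txn1 had 930 and 936 counts in texAM, 932 and 931 in exAM, 921 and 908 in tAM, and 932 and 930 in HostAM. No gene longer than 500 bases exceeded 1.899 counts per base of its longest transcript (mean of 8 libraries). Per base of the annotated principal transcript the largest such value was 18.824. Counts per base refer to the longest transcript unless stated. Of the 32 genes, 14 (43.8%) lay over 0.5 counts per base, against 1065 of the 14025 tested genes with a known length (7.59%). The highest count of a gene over its lowest among the 8 libraries was below the ratio of totals for 7 of these 14 (Gsr, Txn1, Prdx1, Cat, Gpx1, Gstm1 and Mgst1) and above it for the other 7, with a range of 1.03 to 1.93. The share of genes called higher in exAM over tAM climbed with counts per base, to 55.8% over 1 count per base, against 11.9% up to 0.05. A gene with equal raw counts in exAM and tAM comes out 0.43 higher in exAM on the log2 scale, since the mean effective library size was 1.35-fold larger in tAM, and raw counts are therefore given beside such genes. How duplicate reads and strand were treated is not given in the sources used here. The defining AM markers, 12 genes that include Siglecf, Itgax, Marco and Pparg, were present in all groups, with a summed level of 3434 and 3730 CPM in texAM, 5117 and 4394 in exAM, 3845 and 4007 in tAM, and 3701 and 3745 in HostAM. Of these markers Krt79 was low in exAM, at 2.23 and 1.24 CPM, against 192 and 206 CPM in tAM. Siglecf was also lower in exAM, at 228 and 144 CPM, against 332 and 344 in tAM. Raw counts of Cd68 ran only between 2243 and 2285 in the 8 libraries, so its CPM mirrored library size. Those of Marco were higher in exAM (3034 and 3053) than in tAM (1867 and 1954). Markers of other cells differed between groups as well. The 15 lung epithelium markers summed to 855 and 704 CPM in texAM, 429.6 and 378 in exAM, 771 and 741 in tAM, and 897 and 982 in HostAM, and 9 of the 15 were at 0 in both exAM libraries. Cdh1 alone made up most of the exAM sum, at 422 and 375 CPM, and had 208 to 264 CPM in the lung libraries. T and B cell markers (11) summed to 418 and 381 CPM in texAM, 34.6 and 66.1 in exAM, 274 and 343 in tAM, and 236 and 286 in HostAM. Cd2 alone had 195 and 208 CPM in texAM, 32.8 and 61.3 in exAM, 217 and 230 in tAM, and 213 and 212 in HostAM. Cd3e had 82.1 and 60.8 CPM in texAM against 12.9 and 28.2 in HostAM, while Cd8a overlapped between these groups. The 5 red cell markers in the table summed to 114 and 90.7 CPM in texAM, 1.03 and 0.154 in exAM, 86.8 and 81.0 in tAM, and 196 and 145 in HostAM. The 10 endothelial and stromal markers summed to 6.47 and 7.99 CPM in texAM, 54.4 and 65.5 in exAM, 1.28 and 3.51 in tAM, and 2.76 and 2.19 in HostAM. Pdgfra (19.6 and 41.5 CPM) and Cdh5 (28.6 and 17.8 CPM) made up most of the exAM sum. Of these 10 markers, 5 were at 0 in both exAM libraries (Col1a1, Pdgfrb, Col3a1, Col1a2 and Cldn5). Pecam1 was lower in both exAM libraries than in both texAM libraries, so the higher exAM sum was not shared by the whole list. The part of these cells in the results below was not tested. In bulk RNA, fewer cells that express a gene and less RNA per cell cannot be told apart.

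**Figure D1:**
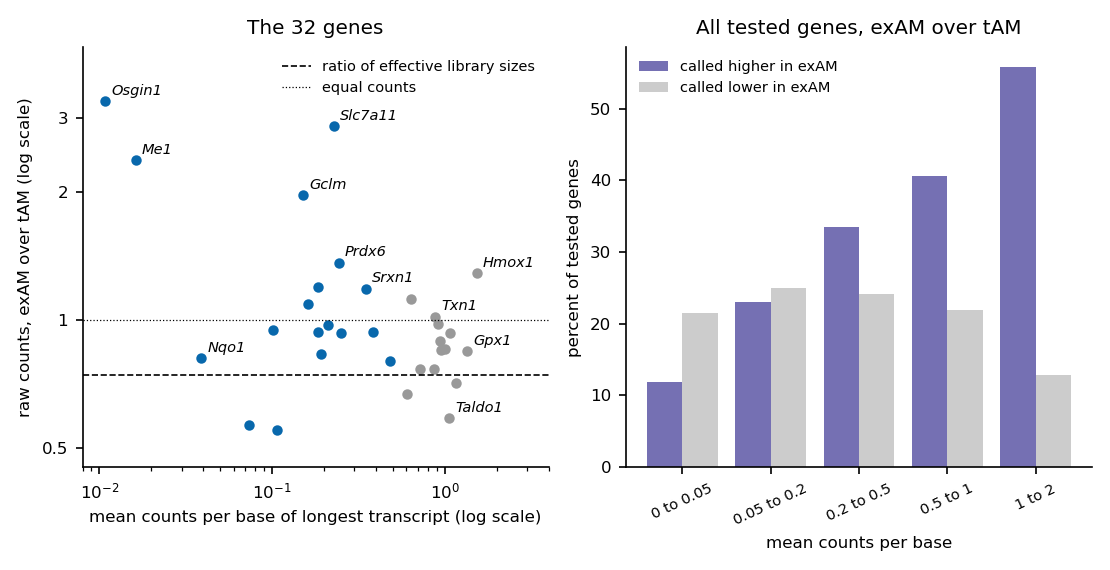
Left, mean raw counts in exAM divided by those in tAM (log scale) against mean counts per base of the longest transcript (log scale) for the 32 genes, grey where over 0.5 counts per base; the dashed line is the ratio of effective library sizes and the dotted line equal counts. Right, percent of tested genes called higher or lower in exAM over tAM in 5 classes of counts per base, in which the share called higher is 11.9% in the lowest class and 55.8% in the highest.

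Among the 32 genes, those for cystine import (Slc7a11), the modifier subunit of glutathione synthesis (Gclm), haem oxygenase (Hmox1) and peroxiredoxins (Prdx1 and Prdx6) were higher in exAM than in tAM. They were also lower in texAM than in exAM. Against HostAM, Gclm, Hmox1, Prdx1 and Prdx6 were called higher in exAM. Slc7a11 was not (log2 fold change 0.30, adjusted p = 0.352 in edgeR's test). In texAM over exAM, 14 genes were called lower and 18 did not pass the test (edgeR's quasi-likelihood test, Benjamini-Hochberg adjusted p under 0.05 over 14537 tested genes), where 20.5% of all tested genes were called lower, 23.2% higher and 43.7% in either direction. In exAM over tAM, 11 genes were called higher and 1 lower, where 21.5% of all tested genes were called higher, 23.2% lower and 44.7% in either direction. In exAM over HostAM, 9 were called higher and 1 lower, where 20.9% of all tested genes were called higher, 23.3% lower and 44.1% in either direction. The share of the 32 called in either direction was 43.8% in texAM over exAM, 37.5% in exAM over tAM and 31.2% in exAM over HostAM, near or below the share of all genes. The median log2 fold change of the 32 was −0.33 in texAM over exAM (0.11 over all tested genes), 0.34 in exAM over tAM (−0.09) and 0.05 in exAM over HostAM (−0.08). These 3 comparisons share the exAM libraries and are not independent of each other.

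The calls split by abundance and by scaling. Of the 14 genes called lower in texAM over exAM, 9 lay over 0.5 counts per base, and raw counts were lower in both texAM libraries for Slc7a11, Gclm, Gpx4 and Hmox1. Raw counts overlapped between the groups for Txn1, Prdx1 and Prdx6 and were higher in texAM for the other 7 (Gsr, Sod1, Cat, Gpx1, Gstm1, Mgst1 and G6pdx). Of the 11 genes called higher in exAM over tAM, raw counts were higher in both exAM libraries for 7, Slc7a11, Gclm, Txn1, Srxn1, Prdx1, Prdx6 and Hmox1. For Txn1 the difference was slight, with 932 and 931 counts in exAM against 921 and 908 in tAM. The share of all tested genes with such raw counts is not given here, so these splits have no background beside them. With library sizes alone as the scale, in place of TMM, the median of all tested genes in exAM over tAM was −0.29 and 7 of the 32 were called higher and 4 lower in exAM over tAM, where 15.5% of all tested genes were higher and 29.4% lower. In exAM over HostAM 3 were higher and 7 lower (15.6% and 28.8% of all tested genes), and in texAM over exAM 2 were higher and 6 lower (30.0% and 14.0%). Slc7a11, Gclm, Hmox1 and Prdx1 were called lower in texAM than exAM, and higher in exAM than tAM, under every alternative that gave them a value. Without all genes over 0.5 counts per base, an alternative chosen after seeing the data, 18 of the 32 were tested. Of these 18, 7 were called higher in exAM over tAM, where 20.3% of the 13444 genes then tested were, 4 higher in exAM over HostAM (19.7%) and 5 lower in texAM over exAM (19.3%). Leaving out 1 library moved the count to 7 without tAM replicate 1 in exAM over tAM, to 5 without exAM replicate 1 and to 6 without either HostAM library in exAM over HostAM, and to 8 without either texAM library and 9 without exAM replicate 1 in texAM over exAM.

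**Figure D2:**
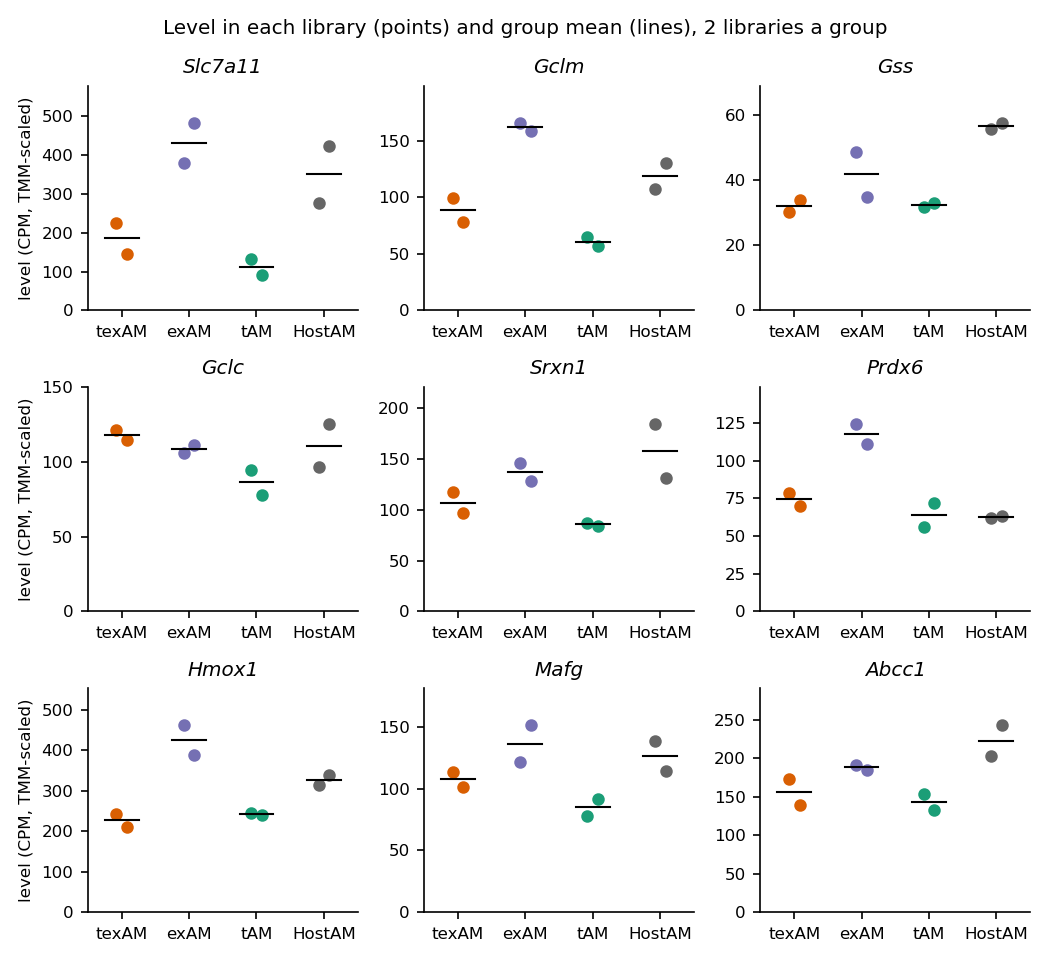
Levels of 9 genes, chosen after their values were seen, in each of the 8 libraries (points) with the group mean (lines), in CPM on linear axes that start at 0, by group in the order texAM, exAM, tAM, HostAM. Slc7a11 stands at 380.4 and 482 in exAM, against 132 and 90.9 in tAM.

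Among the transcripts of the NRF2 control genes themselves, Mafg was called in exAM over tAM and the others passed no test. Nfe2l2 (chr2:75675513-75704641, minus strand), which encodes NRF2, had 349 and 342 CPM in texAM, 356 and 356 in exAM, 378 and 366 in tAM, and 344 and 342 in HostAM. Its 4 groups lay within a narrow band, and the log2 fold change of exAM over tAM was −0.06 (SE 0.08, adjusted p = 0.526). Its raw counts, at 1.16 per base, were 3345 and 3002 in texAM, 2077 and 2306 in exAM, 3255 and 2921 in tAM, and 3122 and 2974 in HostAM, lowest in the exAM libraries. Keap1, the repressor, had 35.1 and 37.3 CPM in texAM, 25.9 and 24.7 in exAM, 31.2 and 35.1 in tAM, and 36.4 and 30.7 in HostAM. The exAM libraries were the lowest and did not overlap the others, but the difference did not pass the test in texAM over exAM (log2 fold change 0.52, SE 0.20, adjusted p = 0.0634) or in exAM over tAM (−0.39, SE 0.21, adjusted p = 0.146). Mafg, the small MAF partner, rose in exAM over tAM by 0.68 (SE 0.16, adjusted p = 0.00599), with 121 and 151 CPM in exAM against 78.1 and 91.9 in tAM. It was at 113 and 102 CPM in texAM and 139 and 114 in HostAM, and the call was lost without exAM replicate 2 or tAM replicate 1. Sqstm1, the autophagy adaptor p62 that binds KEAP1, did not pass the test in any comparison and ran between 207 CPM in texAM and 268 CPM in HostAM.

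In exAM over tAM the called genes with the largest differences were 2 of glutathione synthesis, Slc7a11 and Gclm. Slc7a11 (chr3:49892526-50443614, minus strand), the xCT chain of the cystine importer, had 226 and 146 CPM in texAM, 380.4 and 482 in exAM, 132 and 90.9 in tAM, and 276 and 425 in HostAM. The tAM libraries were the lowest of the 8, the texAM libraries lay next, and exAM and HostAM overlapped. The log2 fold change was −1.22 in texAM over exAM (SE 0.25, adjusted p = 0.00338), 1.95 in exAM over tAM (SE 0.26, adjusted p = 0.000214) and 0.30 in exAM over HostAM (SE 0.25, adjusted p = 0.352). Raw counts gave the same order for exAM and tAM, with 2218 and 3123 counts in exAM against 1141 and 725 in tAM. Gclm (chr3:122245557-122270732, plus strand), the modifier subunit of glutamate-cysteine ligase, the rate-limiting enzyme of glutathione synthesis, had 99.0 and 77.8 CPM in texAM, 165 and 159 in exAM, 64.8 and 56.7 in tAM, and 107 and 130.3 in HostAM. No 2 groups overlapped, in the order exAM, HostAM, texAM, tAM. Its log2 fold change was −0.87 in texAM over exAM (SE 0.16, adjusted p = 0.00138), 1.41 in exAM over tAM (SE 0.16, adjusted p = 6.96e-05) and 0.45 in exAM over HostAM (SE 0.16, adjusted p = 0.0391), the last of which was lost in 6 of 17 alternatives.

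The rest of glutathione synthesis did not follow those 2 genes. Gclc, the catalytic subunit of the same ligase, had 121 and 114 CPM in texAM, 106 and 111 in exAM, 94.7 and 78.0 in tAM, and 96.8 and 125 in HostAM, and passed no test, with a log2 fold change of 0.33 in exAM over tAM (SE 0.16, adjusted p = 0.109). The log2 difference of exAM over tAM was thus 1.41 for the modifier subunit and 0.33 for the catalytic one, a contrast that was not itself tested. Gss, which joins glycine to complete glutathione, had 30.2 and 33.8 CPM in texAM, 48.7 and 34.7 in exAM, 31.7 and 33.0 in tAM, and 55.7 and 57.3 in HostAM, and no difference passed the test. The texAM and tAM libraries lay close together, and both HostAM libraries were the highest. Gsr, glutathione reductase, was called higher in exAM over tAM (0.40, SE 0.09, adjusted p = 0.00498), but its raw counts overlapped, with 2320 and 2240 in exAM against 2405 and 2265 in tAM, and the call was lost with library sizes alone.

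Of the thioredoxin and peroxiredoxin genes, 4 of 5 were called higher in exAM over tAM (21.5% of all tested genes, and 40.6% of those at 0.5 to 1 counts per base) and 3 of 5 lower in texAM over exAM (20.5% and 45.8%). Prdx6, a peroxiredoxin that also repairs oxidised phospholipids, had 78.7 and 70.0 CPM in texAM, 124 and 111 in exAM, 56.1 and 71.7 in tAM, and 62.2 and 63.5 in HostAM. Both exAM libraries were above all others, and the other 3 groups lay together. Its log2 fold change was −0.66 in texAM over exAM (SE 0.16, adjusted p = 0.0072), 0.88 in exAM over tAM (SE 0.16, adjusted p = 0.00141) and 0.90 in exAM over HostAM (SE 0.16, adjusted p = 0.00126). The first of these was lost without texAM replicate 2 (adjusted p = 0.0628). Prdx1, a peroxiredoxin of the cytosol, had 1588 and 1432 raw counts in texAM, 1567 and 1544 in exAM, 1424 and 1345 in tAM, and 1377 and 1455 in HostAM. The exAM counts were above those of tAM and HostAM in spite of the smaller exAM libraries, and the log2 fold change was −0.62 in texAM over exAM (SE 0.10, adjusted p = 0.000865), 0.60 in exAM over tAM (SE 0.10, adjusted p = 0.00103) and 0.67 in exAM over HostAM (SE 0.10, adjusted p = 0.000572).

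Srxn1, sulfiredoxin, which restores overoxidised peroxiredoxins, had 118 and 96.5 CPM in texAM, 146 and 129 in exAM, 87.3 and 84.1 in tAM, and 184 and 132 in HostAM. It rose in exAM over tAM by 0.68 (SE 0.17, adjusted p = 0.00907), and exAM and HostAM overlapped (−0.20, SE 0.17, adjusted p = 0.36). The tAM libraries were again the lowest, and the call was lost without exAM replicate 1 or tAM replicate 2. Txnrd1, the cytosolic thioredoxin reductase, had 227 and 194 CPM in texAM, 214 and 193 in exAM, 185 and 192 in tAM, and 252 and 246 in HostAM. It was called lower in exAM than in HostAM (−0.29, SE 0.11, adjusted p = 0.0485), a call lost in 14 of 17 alternatives. Txn1, thioredoxin, was called in all 3 comparisons with exAM, at −0.57 in texAM over exAM (SE 0.12, adjusted p = 0.00349). Its raw counts, given above, were all but equal in the 8 libraries, so its CPM mirrored library size.

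Of the 5 superoxide and peroxide enzymes, 4 were called lower in texAM over exAM, where 20.5% of all tested genes were, 45.8% of those at 0.5 to 1 counts per base and 69.5% of those over 1. Gpx4, the glutathione peroxidase that reduces lipid peroxides, had 14.6 and 17.6 CPM in texAM, 29.7 and 28.6 in exAM, 20.8 and 18.8 in tAM, and 19.95 and 14.96 in HostAM. Both exAM libraries were above the other 6. Gpx4 fell in texAM over exAM by 0.86 on the log2 scale (SE 0.26, adjusted p = 0.0224), a call lost in 5 of 17 alternatives, 4 of them with 1 texAM or exAM library left out. It was higher in exAM than in HostAM by 0.74 (SE 0.26, adjusted p = 0.0406), a call lost in 11 of 17 alternatives. Catalase (Cat), Gpx1 and Sod1 were called lower in texAM than in exAM by 0.31 to 0.39, and their raw counts were higher in texAM. Gpx1 had 1512 and 1541 counts in texAM against 1300 and 1235 in exAM, and its call was lost in 10 of 15 alternatives. Sod1, the cytosolic superoxide dismutase, lay at 0.186 counts per base of its longest transcript and at 1.15 per base of its principal one. By the principal transcript it would belong with the abundant genes, but it was counted here among those up to 0.5. Sod2, its mitochondrial counterpart, passed no test, with 138 and 119 CPM in texAM, 160.0 and 147 in exAM, 137 and 136 in tAM, and 141 and 142 in HostAM.

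Nqo1, the quinone reductase often used as the marker of NRF2 activity, was scarce in all groups. It had 86 and 38 raw counts in texAM, 38 and 40 in exAM, 67 and 29 in tAM, and 91 and 95 in HostAM, or 8.98 and 4.33, 6.52 and 6.18, 7.78 and 3.64, and 10.0 and 10.9 CPM in the same order. The texAM pools differed from each other, as did the tAM pools, and no comparison passed the test, with 0.15 in exAM over tAM (SE 0.51, adjusted p = 0.829) and −0.87 in tAM over HostAM (SE 0.50, adjusted p = 0.609). Gstm1 and Mgst1, glutathione transferases, were called higher in exAM than in HostAM by 0.40 and 0.41 with raw counts that were lower (Gstm1) or overlapped (Mgst1). Gstp1, another glutathione transferase, passed no test and ran between 7.53 CPM in texAM and 14.99 CPM in HostAM. Abcc1, the exporter of glutathione conjugates also known as MRP1, had 173 and 139 CPM in texAM, 192 and 185 in exAM, 153 and 134 in tAM, and 203 and 243 in HostAM. It rose in exAM over tAM by 0.39 (SE 0.14, adjusted p = 0.0399), a call lost in 6 of 17 alternatives, and both HostAM libraries were the highest of the 8.

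Of the 5 NADPH supply genes, of the pentose phosphate pathway and malic enzyme, 1 was called in texAM over exAM and 1 in exAM over tAM. Of all tested genes 43.7% and 44.7% were called in either direction in these comparisons. G6pdx, the pathway's first enzyme, was called lower in texAM over exAM (−0.26, SE 0.09, adjusted p = 0.0458), a call lost in 10 of 16 alternatives, and Taldo1, transaldolase, was called lower in exAM over tAM (−0.33, SE 0.12, adjusted p = 0.0444), lost in 10 of 15. Both lay over 0.5 counts per base. Pgd and Tkt passed no test. Me1, cytosolic malic enzyme, had 72 and 31 counts in texAM, 88 and 24 in exAM, 28 and 19 in tAM, and 76 and 90 in HostAM. The exAM pools of Me1 were far apart from each other, and no comparison passed edgeR's test, while DESeq2 called Me1 higher in exAM over tAM.

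Hmox1 (chr8:75093621-75100589, plus strand), haem oxygenase 1, which splits haem into biliverdin, iron and carbon monoxide, was the most abundant of the 32 per base of transcript. It had 243 and 210.1 CPM in texAM, 461 and 388 in exAM, 245 and 241 in tAM, and 315 and 338 in HostAM. The exAM libraries were the highest, the HostAM libraries lay between, and the texAM and tAM libraries overlapped at the bottom. Hmox1 fell in texAM over exAM by 0.91 (SE 0.11, adjusted p = 0.000112) and rose in exAM over tAM by 0.80 (SE 0.11, adjusted p = 0.000224) and over HostAM by 0.38 (SE 0.11, adjusted p = 0.0164). At 1.53 counts per base of its longest transcript it lay near the largest value on that measure, 1.899. Its raw counts were 2328 and 1842 in texAM, 2688 and 2515 in exAM, 2114 and 1921 in tAM, and 2857 and 2935 in HostAM. The raw counts of HostAM were thus above those of exAM, and the call of exAM over HostAM was lost with library sizes alone, without exAM replicate 1 and without HostAM replicate 1. Blvrb, biliverdin reductase B, passed no test, with 71.7 and 54.5 CPM in texAM, 75.1 and 77.5 in exAM, 62.6 and 58.1 in tAM, and 93.9 and 79.3 in HostAM. Osgin1, a growth inhibitor induced by oxidative stress, had 46 and 10 counts in texAM, 22 and 24 in exAM, 10 and 4 in tAM, and 56 and 27 in HostAM, and passed no test.

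**Figure D3:**
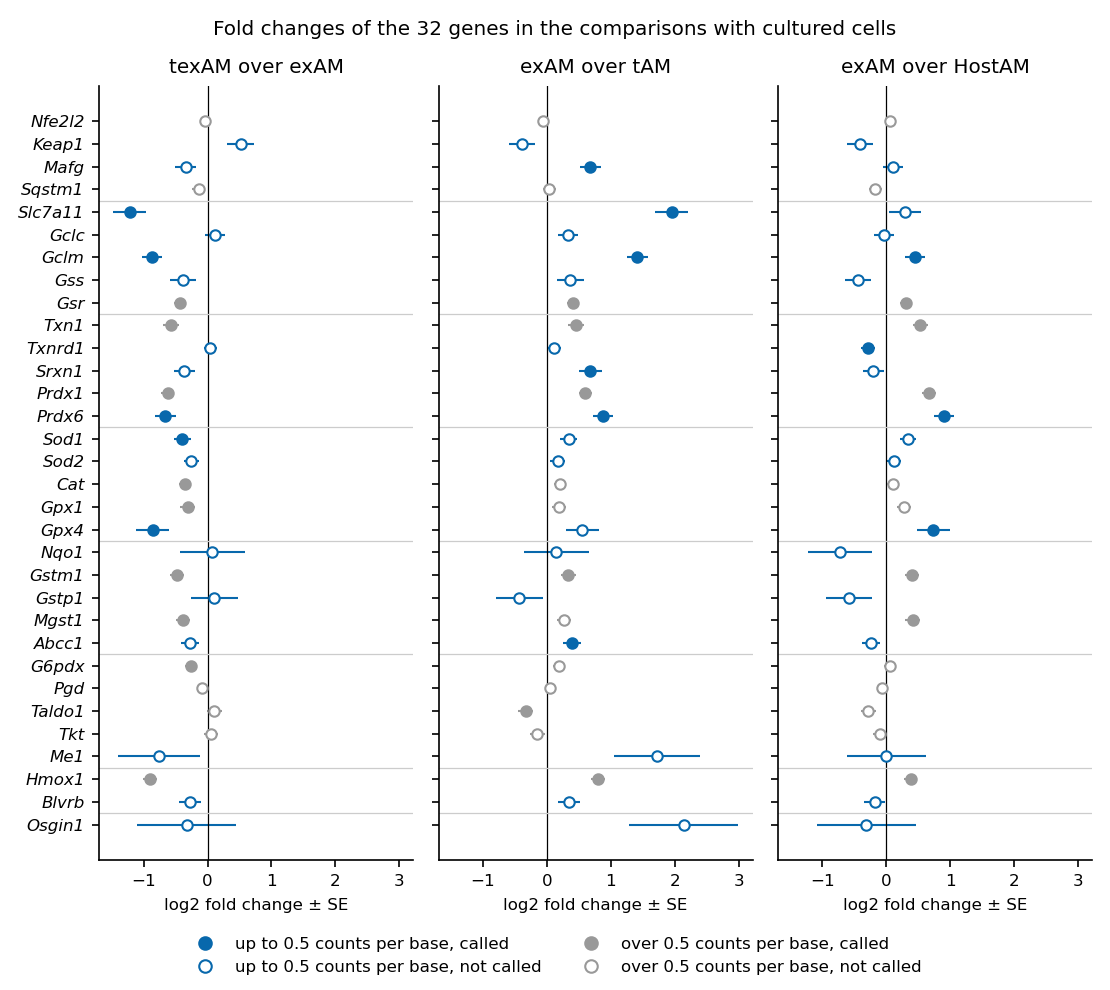
Log2 fold change with its SE for each of the 32 genes in texAM over exAM, exAM over tAM and exAM over HostAM, from the same edgeR fit, filled where the adjusted p is under 0.05 and grey where the gene lies over 0.5 counts per base. Slc7a11 and Gclm lie farthest from 0 among the called genes of exAM over tAM, at 1.95 and 1.41.

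Among the 3 groups taken from lungs, no gene of the 32 passed the test, and those with the smallest p in the comparisons with HostAM were lower in the transferred cells. In texAM over tAM, 0 of 32 were called, where 0.00688% of all tested genes were called. In that comparison 3 of the 32 had an unadjusted p under 0.05 and were higher in texAM (Slc7a11, Gclc and Gclm), where 5.26% of all tested genes were higher at that p, and DESeq2 called 0 of 32. In texAM over HostAM, 0 of 32 were called, where 0.33% of all tested genes were, and 11 of 32 had an unadjusted p under 0.05 and were lower in texAM, where 5.76% of all tested genes were. DESeq2 called 3 of the 32 lower there (Gss, Abcc1 and Hmox1), where it called 0.779% of genes lower. In tAM over HostAM, 0 of 32 were called, where 0.0413% of all tested genes were, and 12 of 32 had an unadjusted p under 0.05 and were lower in tAM, where 5.63% of all tested genes were. DESeq2 called 5 of the 32 lower there (Slc7a11, Gclm, Srxn1, Abcc1 and Hmox1), where it called 0.855% of genes lower. The texAM and tAM comparisons with HostAM share the HostAM libraries.

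The 12 genes with an unadjusted p under 0.05 in tAM over HostAM were Mafg, Slc7a11, Gclc, Gclm, Gss, Txnrd1, Srxn1, Abcc1, Me1, Hmox1, Blvrb and Osgin1. The log2 fold change of tAM over HostAM was −1.65 for Slc7a11 (SE 0.26) and −0.97 for Gclm (SE 0.16), each with an adjusted p of 0.0617 in edgeR's test, the smallest among the 32. It was −0.88 for Srxn1 (SE 0.17, adjusted p = 0.107), −0.80 for Gss (SE 0.20, adjusted p = 0.209), −0.63 for Abcc1 (SE 0.14, adjusted p = 0.156) and −0.42 for Hmox1 (SE 0.11, adjusted p = 0.212). In texAM over HostAM the same genes stood at −0.92 for Slc7a11 (SE 0.25, adjusted p = 0.158), −0.43 for Gclm (SE 0.16, adjusted p = 0.281), −0.56 for Srxn1 (SE 0.17, adjusted p = 0.201), −0.82 for Gss (SE 0.20, adjusted p = 0.127), −0.51 for Abcc1 (SE 0.14, adjusted p = 0.148) and −0.53 for Hmox1 (SE 0.11, adjusted p = 0.0839). All 6 were lower than HostAM in both transferred groups, in libraries given above, and none passed edgeR's adjusted test. These 6 are the genes that DESeq2 called lower in at least 1 of these comparisons, so their direction followed in part from that choice. Gclc, also among the 12, stood at 0.09 in texAM over HostAM (SE 0.15, adjusted p = 0.878 in edgeR's test). Mafg, Slc7a11, Srxn1 and Abcc1 were called in exAM over tAM and not in exAM over HostAM. HostAM and exAM libraries overlapped for Mafg, Slc7a11 and Srxn1, and HostAM lay above exAM for Abcc1. For each of these genes tAM had the lowest mean CPM of the 4 groups, though texAM and tAM libraries overlapped for Abcc1. Peroxiredoxins and superoxide enzymes did not show this order, with 0.06 for Prdx1, 0.02 for Prdx6 and 0.00 for Sod1 in tAM over HostAM. The median of the 32 was −0.13 in tAM over HostAM (0.00 over all tested genes), −0.19 in texAM over HostAM (−0.01) and −0.03 in texAM over tAM (0.00).

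Of the 15 lung epithelium markers, 7 were higher in both HostAM libraries than in all 4 texAM and tAM libraries (Ager, Scgb1a1, Bpifa1, Cldn18, Scgb3a2, Cyp2f2 and Scgb3a1), 1 was lower (Epcam) and 7 overlapped. All 5 red cell markers were higher in HostAM in the same sense. Cyp2f2, a club cell marker, had 120.0 and 46.8 CPM in texAM, 0 and 0 in exAM, 82.8 and 39.7 in tAM, and 156 and 162 in HostAM. Scgb3a2 had 20.4 and 6.96 CPM in texAM, 0 and 0 in exAM, 14.7 and 11.3 in tAM, and 31.4 and 63.0 in HostAM. Epcam went the other way, with 146 and 151 CPM in texAM and 166 and 181 in tAM, against 98.4 and 105 in HostAM. The part of these cells in the lower values of the transferred groups was not tested.

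**Figure D4:**
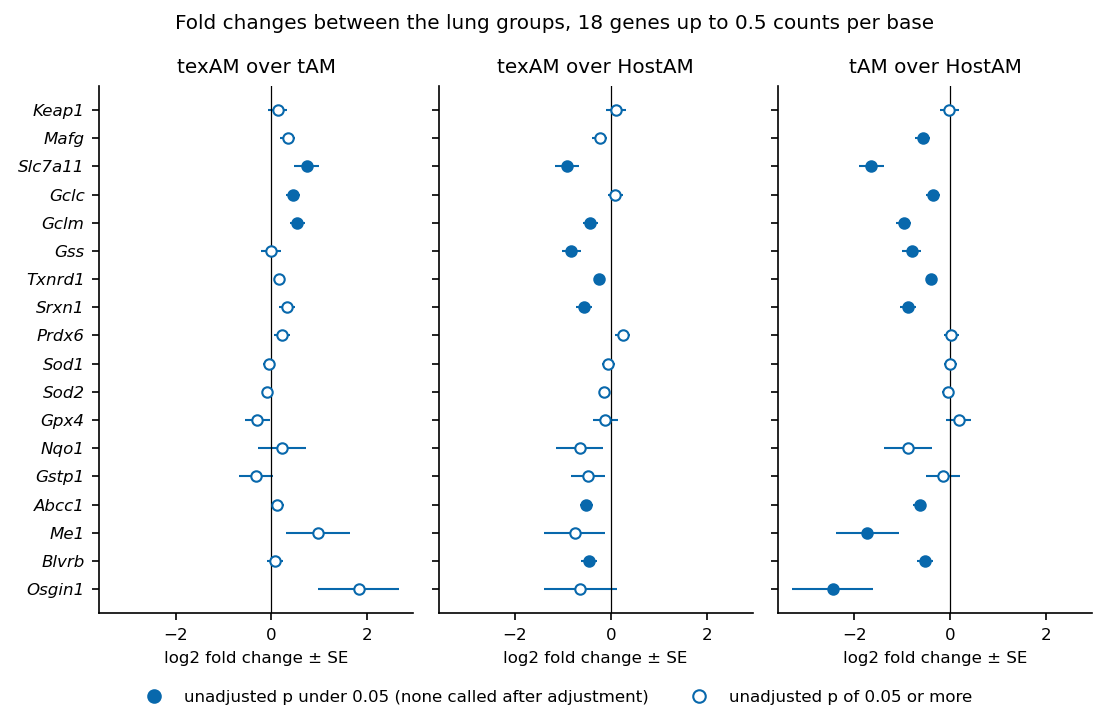
Log2 fold change with its SE in texAM over tAM, texAM over HostAM and tAM over HostAM from the same edgeR fit, for the 18 of the 32 genes at up to 0.5 counts per base. Filled points have an unadjusted p under 0.05, and none had an adjusted p under 0.05. Slc7a11 and Gclm lie at −1.65 and −0.97 in tAM over HostAM.

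Genes of the same pathways outside the 32 were counted in 7 lists, beside 21.5% of all tested genes called higher and 23.2% lower in exAM over tAM, 20.9% and 23.3% in exAM over HostAM, and 23.2% and 20.5% in texAM over exAM. Most lists had calls in both directions. Of 21 tested genes for quinone, aldehyde and conjugation targets of NRF2, 9 were called higher and 1 lower in exAM over tAM, 9 and 2 in exAM over HostAM, and 2 higher and 11 lower in texAM over exAM. Their median was 0.22 in exAM over tAM, against −0.09 over all tested genes. Abcc3, an exporter of conjugates, averaged 5.08 ± 1.53 CPM in texAM, 29.8 ± 3.08 in exAM, 4.57 ± 2.56 in tAM and 6.96 ± 1.70 in HostAM (SD, n = 2 each), and rose by 2.69 in exAM over tAM (adjusted p = 0.000901). Akr1b8, an aldo-keto reductase, averaged 7.49 ± 2.85 CPM in texAM, 61.4 ± 4.67 in exAM, 9.80 ± 3.35 in tAM and 14.5 ± 4.59 in HostAM (SD, n = 2 each), a log2 fold change of 2.65 in exAM over tAM (adjusted p = 0.000238). Ptgr1, prostaglandin reductase 1, had 33.4 and 21.7 CPM in texAM, 111 and 114 in exAM, 32.8 and 35.1 in tAM, and 64.6 and 64.0 in HostAM. It fell in texAM over exAM by 2.02 (adjusted p = 3.34e-05) and rose in exAM over tAM by 1.73 (adjusted p = 8.33e-05). Ptgr1 was also called lower in texAM than in HostAM (−1.22, adjusted p = 0.04), and stood at −0.92 in tAM over HostAM (adjusted p = 0.156). Aldh1a1 had 0 counts in both exAM libraries, against 90 and 63 in tAM, and is a gene that lung epithelium also expresses.

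Glutathione transferases and other glutathione genes were called in shares near those of all genes, with 6 of 24 higher and 5 lower in exAM over tAM, 7 and 4 in exAM over HostAM, and 6 higher and 7 lower in texAM over exAM. Mgst2, a microsomal transferase, averaged 16.9 ± 1.02 CPM in texAM, 58.1 ± 9.47 in exAM, 17.8 ± 5.51 in tAM and 24.7 ± 1.71 in HostAM (SD, n = 2 each), and rose by 1.71 in exAM over tAM (adjusted p = 0.000496). Chac1, which degrades glutathione, rose by 2.27 (adjusted p = 0.0257), but its exAM pools were far apart, at 22.8 ± 24.0 CPM in exAM against 4.74 ± 0.85 in tAM. Oplah, 5-oxoprolinase of the glutathione salvage cycle, averaged 22.4 ± 5.23 CPM in texAM, 2.15 ± 1.10 in exAM, 21.2 ± 1.23 in tAM and 23.0 ± 0.386 in HostAM, and fell by 3.27 in exAM over tAM (adjusted p = 9.43e-05). Ggt5, of the gamma-glutamyl transferase family, fell by 1.39 (adjusted p = 0.0212). Of 24 other thioredoxin, glutaredoxin and peroxidase genes, 4 were higher and 3 lower in exAM over tAM, 7 and 4 in exAM over HostAM, and 5 higher and 6 lower in texAM over exAM. Glrx, glutaredoxin, and Txnl1, a thioredoxin-like protein, rose by 0.88 and 0.90 (adjusted p = 0.00265 and 0.000718), and Txnip, the thioredoxin inhibitor, fell by 0.94 (adjusted p = 0.00129). Msra, methionine sulfoxide reductase A, fell by 0.92 (adjusted p = 0.0124).

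Of 12 cofactors and repressors of NRF2, 2 were higher and 3 lower in exAM over tAM, 3 and 2 in exAM over HostAM, and 3 higher and 3 lower in texAM over exAM. Cul3, the scaffold of the KEAP1 ubiquitin ligase, rose by 0.69 (adjusted p = 0.00391), and Nfe2l1, a relative of NRF2, rose by 0.36 (adjusted p = 0.00428). Bach1, a repressor that competes for the same elements, fell by 0.49 (adjusted p = 0.0124), with 124 ± 16.1 CPM in exAM against 174 ± 3.47 in tAM. Of 14 other NADPH genes, 5 were higher and 3 lower in exAM over tAM, 4 and 4 in exAM over HostAM, and 3 higher and 5 lower in texAM over exAM. Aldh1l1, of cytosolic folate metabolism, rose by 2.06 in exAM over tAM (adjusted p = 0.0173). Mthfd2, of mitochondrial folate metabolism, rose by 1.90 (adjusted p = 0.000578), and Pgls and Rpia, of the pentose phosphate pathway, fell by 0.83 and 0.80 (adjusted p = 0.00238 and 0.00491). Nnt, the mitochondrial transhydrogenase that makes NADPH, had 69.6 and 64.0 CPM in texAM, 127 and 112 in exAM, 62.0 and 79.1 in tAM, and 149 and 119.8 in HostAM. It was called lower in texAM than in HostAM (−1.01, adjusted p = 0.04) and stood at −0.93 in tAM over HostAM (adjusted p = 0.0751), and it rose in exAM over tAM by 0.76 (adjusted p = 0.0041). C57BL/6J mice are known to carry a deletion in Nnt, and the substrain of these mice is not given in the sources used here. The exAM, at 127 and 112 CPM, were C57BL/6 AM like texAM and tAM. The part of strain in these values was not tested.

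Of 6 haem and ferritin genes, 4 were higher in exAM over tAM, 3 were higher in exAM over HostAM and 4 were lower in texAM over exAM. Fech, ferrochelatase, averaged 78.0 ± 12.6 CPM in texAM, 187 ± 1.25 in exAM, 77.8 ± 17.7 in tAM and 115 ± 14.3 in HostAM, and rose by 1.27 in exAM over tAM (adjusted p = 0.000288). Hmox2, the constitutive haem oxygenase, rose by 0.46 (adjusted p = 0.0356). Of 7 genes of the phagocyte NADPH oxidase, the enzyme that makes superoxide, 3 were higher and 3 lower in exAM over tAM, 3 and 2 in exAM over HostAM, and 1 higher and 3 lower in texAM over exAM. Cybb, the catalytic subunit, rose by 0.51 in exAM over tAM (adjusted p = 0.00098) and Rac2 by 0.65 (adjusted p = 0.0035), and the cytosolic subunit Ncf4 fell by 0.70 (adjusted p = 0.0121). Among the genes of the 7 lists, Ptgr1 and Nnt were those called between lung groups, both in texAM over HostAM.

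Some of the counts may be shared between genes. Mafg overlaps 124 exon bases of Sirt7 on the same strand. On the opposite strand Sqstm1 overlaps 580 exon bases of Mrnip, G6pdx 418 of Ikbkg, Gss 395 of Acss2, Gclm 296 of Gm17494 and Keap1 510 of Gm16754. Close copies of Gstp1, Prdx6 and G6pdx were counted as genes of their own. Gstp3 had 87 and 40 counts in texAM, 0 and 0 in exAM, 5 and 17 in tAM, and 0 and 20 in HostAM, while Prdx6b did not exceed 3 counts in any library.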

How the data were processed

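The authors deposited counts of reads per gene for 37310 Ensembl gene IDs in 8 libraries. RNA was amplified by a single-primer isothermal method (NuGEN Ovation) before library making, per the labels' protocols. Per the submitters' processing notes, Bowtie, HTSeq 0.6.1, R 3.3 and the build mm10 (GRCm38) were used, and their settings are not given in the sources used here. Positions and transcript lengths came from GENCODE M21 on GRCm38, which held 87.4% of the IDs.

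The deposited counts were fitted with edgeR 4.0.16 (limma 3.58.1, R 4.3.3) over all 8 libraries with 1 coefficient per group. filterByExpr with a minimum of 10 counts left 14537 genes, libraries were scaled by TMM, and each pair of groups was tested with the robust quasi-likelihood F test. Each gene had 4 residual degrees of freedom, to which the test adds by sharing the spread across genes. Calls are at an adjusted p under 0.05 (Benjamini-Hochberg, over the 14537 genes). The biological coefficient of variation was 0.22. The SE of a log2 fold change was taken from the fold change and its F statistic. CPM use each library's total after TMM as the denominator. The fit was tested on simulated data. DESeq2 1.42.0, other scalings and filters, a replicate block and leaving out each library were alternatives. Replicates are pools of 3 mice or cultures, so p-values measure the spread between pools.

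The 32 genes, the 7 pathway lists and the marker lists were chosen with earlier results of these data known. Values per library were to be given for genes called between lung groups, for genes called in the same direction with a fold of at least 2 in exAM over both tAM and HostAM (no gene met either), and for Nfe2l2, Keap1, Nqo1, Hmox1, Gclc, Gclm, Txnrd1 and Srxn1. The other genes given per library were chosen after their values were seen. In each pathway list the genes named had the 2 largest called changes per direction in exAM over tAM at 10 CPM or more in the higher group (1 of them is not reported here), and Ptgr1, Nnt, Aldh1a1, Krt79 and the markers given per library were singled out after their values were seen.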

Additional observations from a re-analysis of the deposited data

How the results depend on the processing

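No called gene among the 32 reversed its direction in any alternative. Without genes over 0.5 counts per base, which leaves 18 of the 32 to test, 7 were called in exAM over tAM, 4 in exAM over HostAM and 5 in texAM over exAM. In either direction 42.8%, 42.3% and 41.5% of all genes then tested were called in these comparisons. Of all 32, 5 were called in exAM over HostAM in a fit of the 4 libraries compared, where 5721 of 13056 tested genes were. With library sizes alone 8 were called in texAM over exAM, where 44.1% of all tested genes were. Without a filter on low counts 1 was called in texAM over tAM, 5 in texAM over HostAM and 6 in tAM over HostAM. DESeq2 called 3 in texAM over HostAM and 5 in tAM over HostAM, and a minimum of 50 counts gave 2 in tAM over HostAM. Over all genes, texAM over tAM gave 238 calls without a filter, 73 with DESeq2, 2 in the 4-library fit and 0 with the replicate block. In texAM over HostAM there were 694 without a filter, 106 at a minimum of 50 counts, 385 with DESeq2 and 29 with the block. In tAM over HostAM there were 425 without a filter, 44 at a minimum of 50 counts and 190 with DESeq2. The cause of the other shifts was not tested.

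Leaving out each library in turn gave 7 to 12 called genes of the 32 (4698 to 6881 over all genes) in exAM over tAM, 5 to 8 (4591 to 6169) in exAM over HostAM, and 8 to 15 (4471 to 6796) in texAM over exAM. It gave 0 to 0 (0 to 5) in texAM over tAM, 0 to 1 (1 to 90) in texAM over HostAM, and 0 to 2 (0 to 26) in tAM over HostAM. Same-numbered libraries did not deviate together over all tested genes (correlations between −0.055 and 0.01). Whether the numbers mark pairs cannot be decided from this, since such deviations also hold the counting noise of scarce genes. With the replicate block 10 of the 32 were called in exAM over tAM, 7 in exAM over HostAM, 11 in texAM over exAM and 0 between lung groups.

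Nqo1, Me1 and Osgin1 were scarce, their pools differed from each other, and none of their differences passed edgeR's test. How the weak dependence of abundant genes' counts on library totals bears on their calls was not tested.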
